A study of Mus musculus with 2 samples.

Results

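AP-1 is a family of dimeric transcription factors built from FOS and JUN proteins, and the genes of these proteins are grouped here with EGR genes. Several of them, though not all, are immediate early genes, which are transcribed within minutes of a stimulus. The 10 symbols of this group (Fos, Fosb, Fosl1, Fosl2, Jun, Junb, Jund, Egr1, Egr2 and Ier2) were looked up in a table of 26607 rows, and 9 were found, each on 1 row. No row carried the symbol Ier2, which was not analysed here. The table held poly(A)-selected RNA of primary microglia (macrophages that reside in brain and spinal cord) in 2 libraries: 1 from cells transfected with a control vector and 1 from cells transfected with a Per2-overexpression vector. PER2 is a repressor of the circadian clock. The labels give no other agent, time or age, and do not say what drives Per2 in the vector or how many cultures each library holds. They give the organism as mouse, whereas the genome build and the gene identifiers are those of rat.

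JUN proteins can pair with each other or with FOS proteins, whereas FOS proteins need a JUN partner to bind DNA. The dimers bind the sequence TGACTCA and close relatives of it. In microglia and macrophages, AP-1 acts on genes of cytokines, chemokines and matrix proteases, and immediate early transcripts also appear when cells are handled or dissociated. EGR1 and EGR2 are zinc finger factors that are induced by the same MAP kinase and serum response factor (SRF) route as FOS.

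Values are FPKM, read fragments divided by transcript length and by the number of mapped fragments, so that levels of different genes can be compared per length. Log2 ratios are log2 of FPKM + 1 in the library labelled Per2 vector over FPKM + 1 in the library labelled control vector. A gene was compared if its mean over both libraries reached 1 FPKM (12369 rows), and it was called 2-fold if its log2 ratio reached 1 or -1. With 1 library per group there are no replicates, no test was possible and no value carries an error. The depth of the libraries is unknown.

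The label of the second library was not borne out by its own Per2 transcript, which had 6.90 FPKM in the library labelled control vector against 0.927 FPKM in the other. Every direction given here is between the labels. Across all genes compared the median log2 ratio was -0.18. It was -0.37 after each library was rescaled to the same sum (TPM) and -0.069 after the ratios were centred on the median of well-expressed genes. The split past 2-fold moved with it, from 271 higher and 733 lower as deposited to 189 and 1400 in TPM and 406 and 548 when centred. Microglia markers were present, with 12 of 14 past the filter, although Cx3cr1 was listed at 0 in both libraries and P2ry12 stood at 0.650 and 0.0802 FPKM. Markers of other glia were present too, and the summed level of 11 astrocyte markers was 1053 FPKM in the library labelled control vector and 581 FPKM in the other. Glul, named with its values known, held 614 and 383 FPKM of these sums.

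Only 1 of the 8 AP-1 and EGR genes past the filter differed by 2-fold, and that was Fos, which was lower in the library labelled Per2 vector. Of all genes compared, 5.93% were at least 2-fold lower. None of the 8 (0) was at least 2-fold higher, against 2.19% of all genes compared. Of the 8, 6 had a log2 ratio below 0, as did 64.1% of all genes compared. The median of the 8 was -0.40, beside the -0.18 of all genes. These shares were near those of all genes, and the values that follow describe which members were abundant and how each family was composed.

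**Figure D1:**
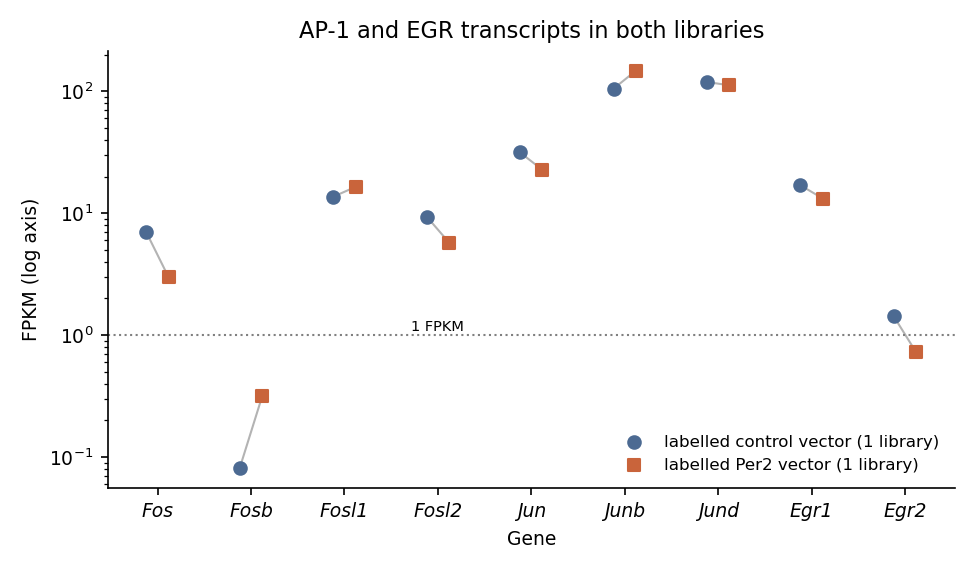
FPKM (log axis) of the 9 measured genes in the library labelled control vector (circles) and the library labelled Per2 vector (squares), 1 library each, with a dotted line at 1 FPKM. Jund and Junb lie above 100 FPKM in both libraries, Fosb lies under 1 FPKM in both, and Fos differs most among the genes past the filter (6.98 against 2.97 FPKM).

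Among the FOS family, Fos itself, whose product c-FOS is the classical inducible partner of JUN, had 6.98 FPKM in the library labelled control vector and 2.97 FPKM in the library labelled Per2 vector. The log2 ratio was -1.01, and 718 of the genes compared (5.80%) had a ratio as low. Fos was only just past the 2-fold line, and its log2 ratio was -0.89 after centring, -0.91 with the trend with transcript length removed and -0.59 with 5 FPKM added in place of 1.

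Fosl2, which encodes FRA2, a family member without the strong activation domain of c-FOS, was also lower, with 9.40 against 5.75 FPKM (log2 ratio -0.62). Fosl1, which encodes the related FRA1, went the other way, with 13.7 against 16.5 FPKM (log2 ratio 0.25). Its log2 ratio was 0.062 after rescaling to TPM. Fosb, a further FOS gene, had 0.0812 against 0.315 FPKM and did not pass the filter, and no fold is read from values this low. It is accounted for in the sums of the family but not in the counts.

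The JUN family was the abundant part of AP-1. Jund, the member most often found at a steady level in resting cells, had 120 against 112 FPKM (log2 ratio -0.09, and 0.025 after centring). It exceeded 93.3% of the genes compared in the library labelled control vector and 92.1% in the other. Junb, a weaker activator than JUN on single AP-1 sites, had 105 against 148 FPKM, and its log2 ratio of 0.49 was the highest of the 8. Jun, which encodes c-JUN, had 31.6 against 22.7 FPKM (log2 ratio -0.46).

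Junb and Jun thus lay on opposite sides of 0 under each scaling run. The ratio of Junb to Jun within a library does not depend on how that library was scaled. It was 3.34 in the library labelled control vector and 6.54 in the library labelled Per2 vector, a 1.96-fold difference. In log2 ratios, Junb lay 0.95 above Jun, and 0.69 above it with the length trend removed.

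The families differed in make-up as well as in total. The 3 JUN genes summed to 256 FPKM in the library labelled control vector and 283 FPKM in the library labelled Per2 vector. All rows summed to 659696 and 760286 FPKM, which differ by a larger factor. After rescaling to TPM the JUN sum is therefore lower in the second library, whereas shares within a family do not change. Junb held 41.1% of the JUN sum in the first and 52.3% in the second, Jund held 46.6% and 39.7%, and Jun held 12.3% and 8.005%. Jund was therefore the leading JUN transcript in the library labelled control vector and Junb in the other.

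The 4 FOS genes summed to 30.1 against 25.5 FPKM. Fosl1 held 45.4% of the FOS sum in the library labelled control vector and 64.6% in the library labelled Per2 vector. Fos held 23.2% and 11.6%, and Fosl2 held 31.2% and 22.6%. The ratio of Fosl1 to Fos was 1.96 in the first library and 5.55 in the second, and the ratio of Fosl1 to Fosl2 was 1.45 and 2.86. In log2 ratios, Fosl1 lay 1.26 above Fos and 0.87 above Fosl2, and with the length trend removed these differences were 1.19 and 0.44. Per length, the JUN sum exceeded the FOS sum in both libraries, and the 7 AP-1 genes together had 287 against 309 FPKM. That total, too, is lower in the second library after rescaling to TPM.

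**Figure D2:**
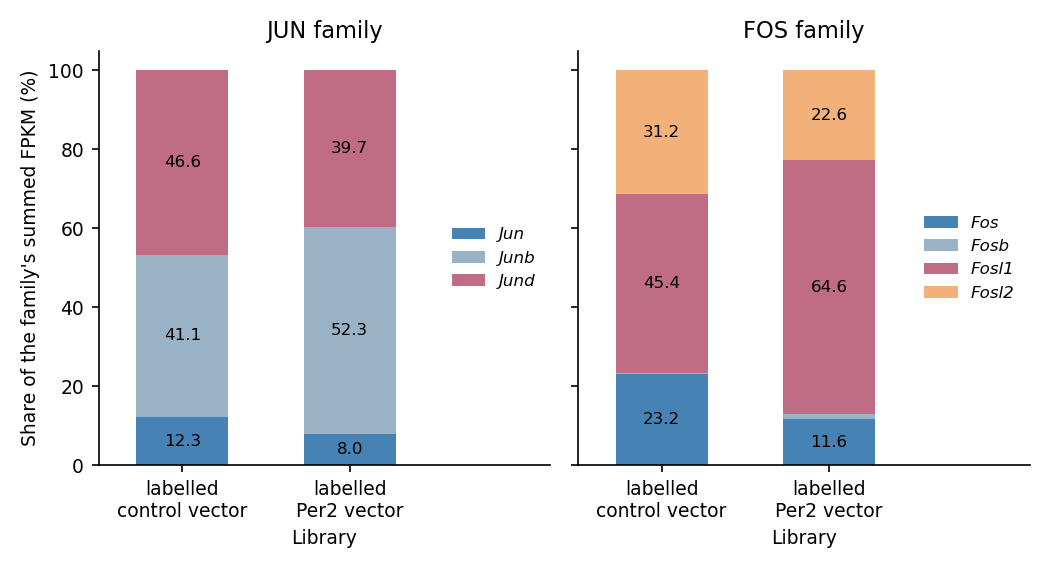
Share of each family's summed FPKM (%) held by each gene in the library labelled control vector and the library labelled Per2 vector, for the JUN family (left) and the FOS family (right). The share of Junb goes from 41.1% to 52.3% and that of Fosl1 from 45.4% to 64.6%.

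Both EGR genes had lower values in the library labelled Per2 vector without reaching 2-fold. Egr1, a zinc finger factor induced by growth factors and stress, had 17.0 against 13.2 FPKM (log2 ratio -0.34). With the length trend removed its ratio was 0.045, so Egr1 had no direction independent of that correction. Egr2, which encodes KROX20, known from myelination and from macrophage differentiation, was near the filter, with 1.42 against 0.721 FPKM. Its log2 ratio of -0.49 understates the 1.97-fold difference of the deposited values, because 1 FPKM was added to values of that size.

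**Figure D3:**
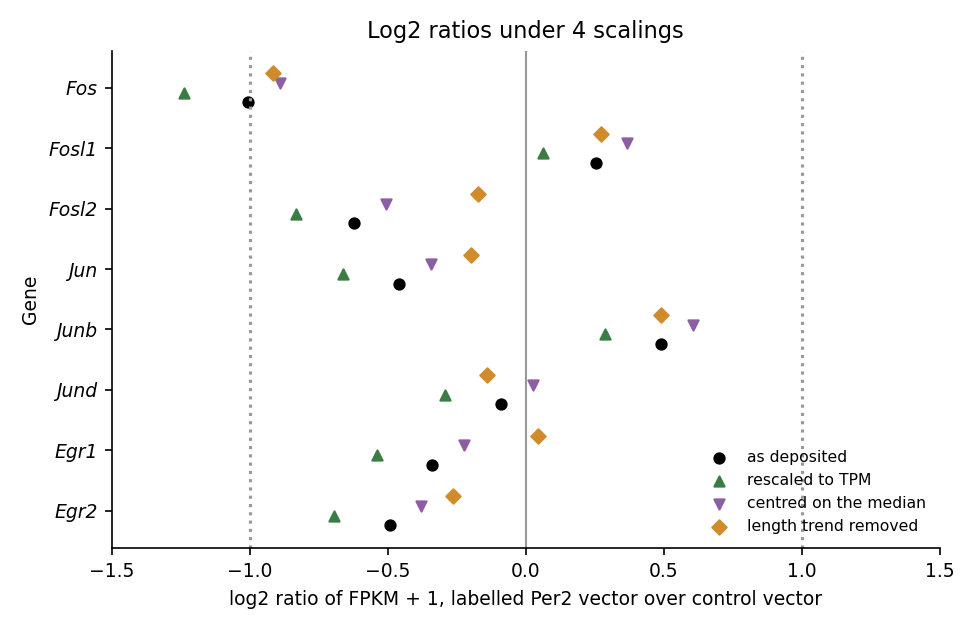
Log2 ratio of FPKM + 1 (library labelled Per2 vector over library labelled control vector) of the 8 genes past the filter, as deposited (circles), rescaled to TPM (upward triangles), centred on the median (downward triangles) and with the length trend removed (diamonds), with dotted lines at 2-fold. Fos lies at -1.01 as deposited and at -0.91 with the length trend removed, and Jund and Egr1 lie on both sides of 0.

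The libraries differed with transcript length, and the length of the mouse transcript of the same symbol was set beside each gene. Over 10 bins of genes by length, the median log2 ratio was 0.42 in the bin with the shortest transcripts and -0.46 in the bin with the longest. Fosl2, at 6537 nt, lay in the longest bin, and its ratio was -0.17 with the trend removed. Jun, at 3189 nt, lay in a bin with a median of -0.28 and had -0.20 with the trend removed. Fos (2108 nt), Fosl1 (1864 nt) and Junb (1809 nt) shared a bin with a median of -0.063, and their ratios differed within it, at -1.01, 0.25 and 0.49. With the trend removed none of the 8 (0) was 2-fold lower, against 2.4% of the genes with a length, and the median of the 8 was -0.16. How far transcript length accounts for the ratio of a single gene was not tested.

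**Figure D4:**
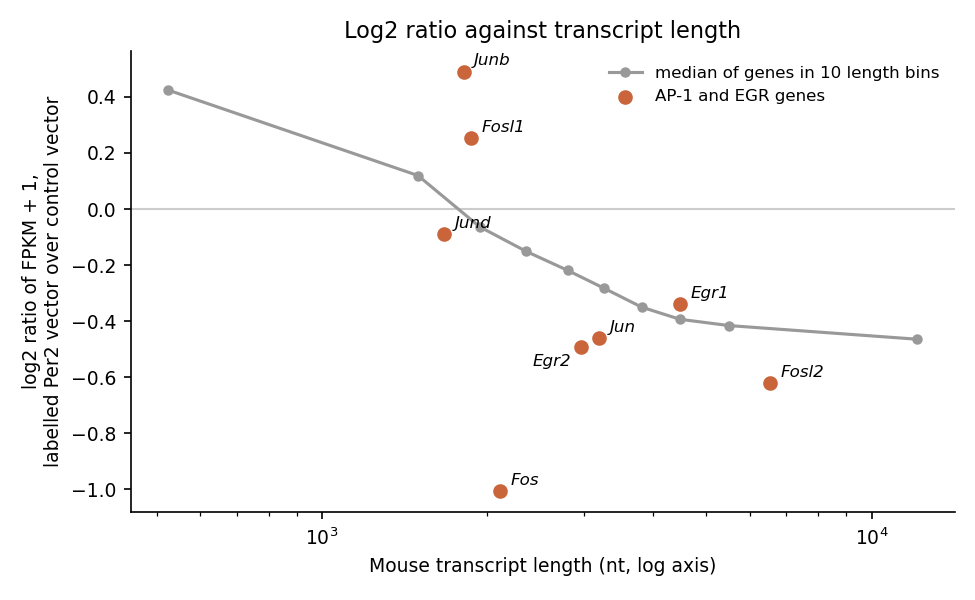
Log2 ratio of FPKM + 1 (library labelled Per2 vector over library labelled control vector) against mouse transcript length in nt (log axis). Grey points joined by a line are the medians of 10 bins of genes by length, from 0.42 to -0.46, and orange points are the 8 genes, of which Fos at -1.01 lies farthest from the line.

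Structure separates the families as well. In the mouse annotation, Jun, Junb and Jund each have 1 exon, whereas the longest coding transcript of each FOS gene has 4 exons. The 153 compared genes with a single exon had a median log2 ratio of -0.20, the same to 2 decimals as the 9955 genes with more exons, and of -0.14 against -0.0049 with the length trend removed. Of the former 4.58% were at least 2-fold higher, against 1.10% of the latter, and 4.58% against 5.28% were at least 2-fold lower. The single-exon genes were also shorter, with a median of 2349 against 3041 nt, and these shares were not taken with the length trend removed. Immediate early transcripts are also known for short lives, set in part by AU-rich elements (ATTTA repeats) in the 3' untranslated region, which proteins such as that of Zfp36 bind. Each of the 9 measured genes held at least 1 ATTTA there, as did 69.0% of the compared genes with an annotated region, and Fosl2 held 8, Fos 4 and Jun 4. The longer element TTATTTATT was found in Fos and Fosl2 but in none of the other 7, and in 7.70% of compared genes. The 777 compared genes with that element had a median of -0.28 against -0.20 for those without it, and of 0.037 against -0.0094 with the length trend removed. The part of the element in the ratios of Fos and Fosl2 was not tested. Both sites are shown as 30 bases of the mouse genome (GRCm38, plus strand, GENCODE M21 transcripts), at chr12:85477103-85477132 for Fos and chr5:32156871-32156900 for Fosl2, with ATTTA in capitals.
Fos: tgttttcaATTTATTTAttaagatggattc
Fosl2: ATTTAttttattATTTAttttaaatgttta

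Promoters were read for the 7 symbols found in a RefSeq table of mouse promoters (GRCm38.p6). Mouse was used since the files' own build is rat and no rat sequence was at hand. Fosl1, Egr1 and Ier2 were not among the 7, so their promoters were not searched for any motif. Windows were the 250 bases before the start site, and motifs were searched on both strands. The 7 genes had 11 windows, 5 of them of Egr2, and some of these overlap. A gene is named if any of its windows held the motif, whereas the shares of all are of single windows. The 2 are therefore not in the same unit. The AP-1 site TGACTCA was in none of the members' windows and in 4.46% of all 32851 windows, and the full cAMP response element TGACGTCA was in none of them and in 1.55% of all. The variant TGACATCA, known as the AP-1 site of the Jun promoter, was found in Jun, 45 bases before the start, and in 2.93% of all windows. The response element core TGACG, which is contained in TGACGTCA, was found in Fos, Fosb, Junb and Egr2 and in 17.8% of all windows. The CArG box, the binding site of SRF, was found in Egr2 and in 1.47% of all windows. The well-known SRF site of Fos lies farther upstream than these windows reach.

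The E-box CACGTG, to which the clock factors CLOCK and BMAL1 bind, was found in 1 of the 5 Egr2 windows and in 6.02% of all windows. The EGR motif GCGNGGGCG was found in Fosb and Fosl2 and in 4.70% of all. TATAAA was found in Fos (12.4% of all windows), and CCAAT in Jun, Junb and Egr2 (33.8%). The windows below are those of Fos, the gene past 2-fold, and of Jun and Junb, which lay on opposite sides of 0. The last is that of Egr2, the only gene searched that had a CArG box. They lie at chr12:85473640-85473889 (plus strand), chr4:95052223-95052472 (minus strand), chr8:84978749-84978998 (minus strand) and chr10:67537619-67537868 (plus strand). Capitals mark TGACG, TGACATCA, the CArG box, TATAAA and CCAAT on either strand.
Fos: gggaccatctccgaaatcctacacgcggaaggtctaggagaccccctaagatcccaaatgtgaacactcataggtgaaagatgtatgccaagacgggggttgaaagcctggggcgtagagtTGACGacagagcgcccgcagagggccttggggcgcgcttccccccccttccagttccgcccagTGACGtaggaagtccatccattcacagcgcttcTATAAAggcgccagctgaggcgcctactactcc
Jun: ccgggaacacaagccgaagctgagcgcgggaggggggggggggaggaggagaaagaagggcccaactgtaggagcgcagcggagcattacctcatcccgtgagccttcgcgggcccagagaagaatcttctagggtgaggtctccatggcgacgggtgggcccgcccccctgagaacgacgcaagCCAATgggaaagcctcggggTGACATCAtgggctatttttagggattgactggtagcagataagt
Junb: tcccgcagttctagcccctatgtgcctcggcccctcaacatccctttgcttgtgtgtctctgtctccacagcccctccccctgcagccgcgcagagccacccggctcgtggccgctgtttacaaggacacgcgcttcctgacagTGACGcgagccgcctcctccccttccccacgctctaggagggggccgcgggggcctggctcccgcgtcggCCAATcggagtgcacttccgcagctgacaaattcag
Egr2: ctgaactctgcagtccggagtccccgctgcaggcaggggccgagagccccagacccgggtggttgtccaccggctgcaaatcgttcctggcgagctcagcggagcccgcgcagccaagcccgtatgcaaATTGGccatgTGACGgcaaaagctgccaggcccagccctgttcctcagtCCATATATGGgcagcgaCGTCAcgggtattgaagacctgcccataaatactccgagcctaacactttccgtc

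Other basic leucine zipper factors pair or compete with FOS and JUN. Of 14 past the filter, 10 had a log2 ratio below 0 and the median was -0.39. Past 2-fold there was 1 lower gene (7.14%, against 5.93% of all genes compared) and 0 higher genes. The 1 was Maf, a macrophage factor, with 29.97 against 11.7 FPKM (log2 ratio -1.28, and -0.84 with the length trend removed). Atf2, a partner of JUN, had 7.96 against 4.10 FPKM. Nfe2l1 had 9.38 against 4.71 FPKM. Jdp2, a repressor that pairs with JUN, is named with its values known and had 38.2 against 22.9 FPKM.

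Other immediate early genes lay on both sides of 0. Of 29 past the filter, 13 were below 0 and 16 above, and the median of 0.067 was -0.13 after rescaling to TPM. The 1 gene past 2-fold (3.45%, against 5.93% of all genes compared at least 2-fold lower) was Trib1, a pseudokinase gene. It had 3.92 against 0.552 FPKM (log2 ratio -1.67). Ier3, an early gene of survival signalling, had 191 against 351 FPKM (0.87), Id1, an inhibitor of basic helix-loop-helix factors, had 219 against 355 FPKM and Zfp36l1 had 50.5 against 30.4 FPKM. Zfp36 and Myc, named with their values known, had 37.7 against 39.6 FPKM and 11.7 against 12.3 FPKM. With the length trend removed the list's median was 0.21, and only rescaling to TPM put it below 0.

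Regulators upstream of the early promoters were mostly within 2-fold. Of 11 SRF, ternary complex factor and CREB genes, 0 were past 2-fold and 8 were below 0 (median -0.36, and -0.094 with the length trend removed). Among all genes compared, 5.93% were at least 2-fold lower and 2.19% higher. Mrtfa, a coactivator of SRF, was closest to the line with 6.11 against 2.59 FPKM (log2 ratio -0.99), followed by Crtc1, of the CREB coactivators (1.72 against 0.738 FPKM), Elk4 (3.83 against 2.24 FPKM) and Elk1 (11.4 against 7.90 FPKM). With a pseudocount of 0.1 FPKM 2 of the 11 were at least 2-fold lower, and 1 was in TPM. Srf itself, named with its values known, had 16.4 against 16.6 FPKM.

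Of 22 MAP kinase cascade genes, 2 were past 2-fold, both lower (9.09%, against 5.93% of all genes compared), and the median was -0.18. One of them was Map2k7, a kinase that activates JNK, with 2.32 against 0.322 FPKM (log2 ratio -1.33, and -1.03 with the length trend removed). Its level was low in both libraries. The count of 2 lower genes was 4 in TPM and 0 with a pseudocount of 5 FPKM. It was 1 after centring, with the length trend removed or under a filter of 5 FPKM. Map2k4, the other kinase of JNK, had 23.4 against 12.9 FPKM, and Rps6ka3, an ERK-activated kinase, had 14.7 against 7.28 FPKM.

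Feedback genes of the route, the MAP kinase phosphatases, SPRED and SPRY inhibitors and EGR corepressors, had 1 of 16 past 2-fold. That gene was 6.25% of the list, against 5.93% of all genes compared at least 2-fold lower. It was Spred2, lower in the library labelled Per2 vector (2.92 against 0.715 FPKM, log2 ratio -1.19), and with the length trend removed it was under 2-fold (-0.81). Nab2, a corepressor that EGR factors induce, had 15.0 against 22.5 FPKM, while its relative Nab1, named with its values known, had 19.2 against 12.9 FPKM. Dusp3 (22.5 against 14.9 FPKM) and Dusp6 (32.3 against 21.7 FPKM), phosphatases of ERK, were lower within 2-fold.

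Textbook AP-1 target genes went both ways. Of 29 past the filter, 17 were above 0 and 12 below, and the median of 0.15 was -0.054 after rescaling to TPM. Past 2-fold there were 3 higher genes and 1 lower gene. The 3 higher targets were Timp1, a metalloproteinase inhibitor, with 450 against 1227 FPKM (log2 ratio 1.45), Il6, the cytokine, with 21.1 against 47.8 FPKM (1.15), and Csf2, which encodes GM-CSF, with 9.33 against 19.8 FPKM (1.01). Plau, which encodes urokinase, was the 1 lower gene, with 41.4 against 10.8 FPKM (-1.85). In TPM 3 targets were at least 2-fold lower and 1 was at least 2-fold higher. The 1 was Timp1 (1.24), with Il6 at 0.96 and Csf2 at 0.84. With the length trend removed Timp1 (0.99) and Csf2 (0.50) were under 2-fold, and Il6 (1.29) and Plau (-1.70) were not. The matrix metalloproteinases Mmp12 (1.18) and Mmp9 (1.01), named with their values known, were then past it, so the count of higher genes was again 3. These genes also answer to NF-kB and other factors.

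**Figure D5:**
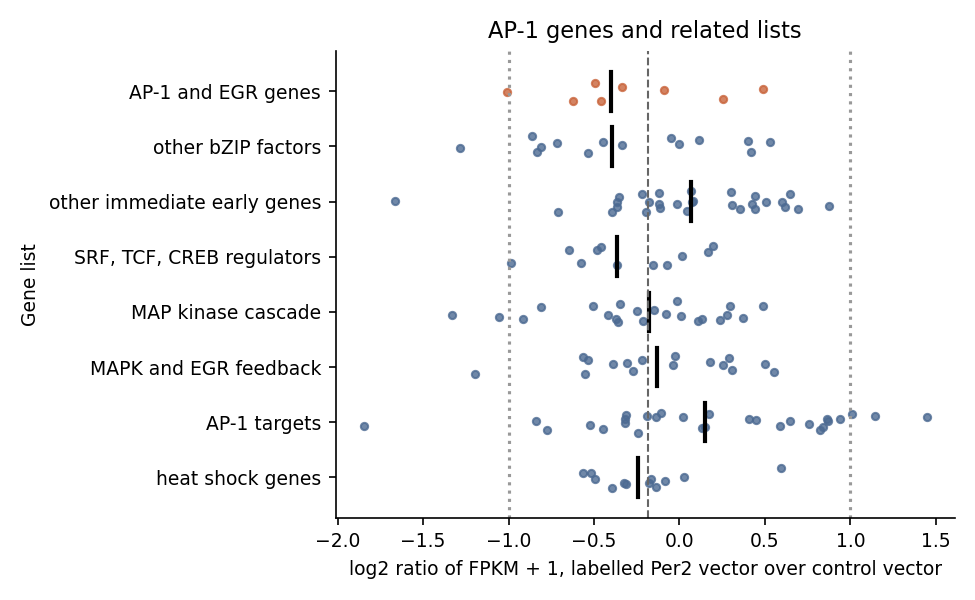
Log2 ratio of FPKM + 1 (library labelled Per2 vector over library labelled control vector) of each gene past the filter in the AP-1 and EGR group and 7 related lists, with black bars at list medians, a dashed line at the median of all genes (-0.18) and dotted lines at 2-fold. The AP-1 and EGR genes (orange) have a median of -0.40 and the AP-1 targets one of 0.15.

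Handling stress and cell composition were read from lists beside these values. Of 12 heat shock genes, 0 were past 2-fold, 10 were below 0 and the median was -0.24. Hspe1 had 209 against 317 FPKM, Hsph1 20.6 against 13.6, Hspd1 115 against 80.2 and Hsp90aa1 149 against 106. Of 12 microglia markers, 4 were at least 2-fold lower (C1qb, C1qc, C1qa and Csf1r), with all 14 summing to 3487 against 3075 FPKM. Most of that sum lay in Tyrobp (1076 against 1364 FPKM), Cd68 (923 against 774) and Aif1 (579 against 491), named with their values known. Of 11 astrocyte markers, 5 were at least 2-fold lower. Of 7 oligodendrocyte lineage markers past the filter, 3 were at least 2-fold lower, and all 10 summed to 74.8 against 58.3 FPKM. Pdgfra, named with its values known, was the 1 above 0, with 7.40 against 9.72 FPKM. Among all genes compared, 5.93% were at least 2-fold lower. With the length trend removed, 3 microglia, 2 astrocyte and 1 oligodendrocyte lineage markers were at least 2-fold lower, against 2.4% of the genes with a length. The 10 fibroblast markers summed to 1570 against 1390 FPKM with 0 past 2-fold. The 9 neuron markers summed to 41.6 against 28.2 FPKM, with Rbfox3 and Slc17a7 at 0 in both libraries. In bulk RNA, fewer cells of a type and less RNA per cell cannot be told apart, and the part of these shifts in the AP-1 values was not tested.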

How the data were processed

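Poly(A)-selected RNA was sequenced as 2 libraries, 1 per group. Per the labels' protocols, random-primed cDNA was made with no step that marks the strand, so antisense overlap cannot be resolved. The authors deposited FPKM values, 1 per gene and library. HISAT2, StringTie, DESeq2, edgeR and the build Rnor_6.0 are named in the submitters' processing notes, with no versions. Their roles and the read filters used were not given in the sources used here. Rat Ensembl identifiers stood on 22050 rows, and 4557 further rows were loci named NewGene.

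Depth was not recoverable: among 1286 rows between 0 and 0.3 FPKM in both libraries, the commonest ratio (to 3 decimals) was shared by 6. Columns were assigned by the library names in the labels. Of rows sharing a symbol (107 symbols), the row with the higher mean was kept. Ratios used a pseudocount of 1 FPKM and a mean of at least 1 FPKM. Centring subtracted the median log2 ratio of rows with a mean of at least 5 FPKM. The length trend was a lowess fit (statsmodels 0.14.6, span 0.3) on the longest coding mouse transcript (GENCODE M21) of the same symbol, found for 10139 of the 12369 rows (82.0%), and removing it also recentres the ratios. The calculation was tested on simulated data.

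All members were named, and of each of 13 further lists up to 4 genes past the filter with the largest absolute log2 ratio. The members and lists were chosen with earlier results of these data known. Some genes taken by that rule are not reported here, although they count in the lists. Genes named outside it are marked as such, apart from markers given because they were listed at 0 or under the filter.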

Additional observations from a re-analysis of the deposited data

How the results depend on the processing

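Alternatives were a pseudocount of 0.1 or 5 FPKM, the filter dropped or raised to 5 FPKM, TPM scaling, centring, removal of the length trend, and summing rows that share a symbol. The ratio of Fos was -0.59 with a pseudocount of 5, -0.89 after centring and -0.91 with the length trend removed. Fos has a mean of 4.98 FPKM, so it had no value under the filter of 5 FPKM. The count of AP-1 and EGR genes at least 2-fold lower, 1 as reported, was therefore 0 under these 4 alternatives. Egr2 also had no value under the filter of 5 FPKM. Jund turned to 0.025 after centring and Egr1 to 0.045 with the length trend removed. No other ratio of the 8 genes changed sign or crossed 2-fold.

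Across the other lists, 21 genes were at least 2-fold lower, against 10 with a pseudocount of 5, 36 after rescaling to TPM and 10 with the length trend removed. The number at least 2-fold higher was 3, against 1 after rescaling to TPM. Medians changed sign after rescaling to TPM for the other immediate early genes (-0.13) and the AP-1 targets (-0.054). With the length trend removed they did so for the MAP kinase cascade (0.022), the feedback genes (0.21) and the fibroblast markers (0.16), and under the filter of 5 FPKM for the feedback genes (0.075). The median of the oligodendrocyte markers was -0.041 under the filter of 5 FPKM, and that of the neuron markers was -0.010 with no filter. Where no construction of the alternative shows the cause, the cause was not tested. Of all genes, 733 were called 2-fold lower, against 1304 with a pseudocount of 0.1, 164 with a pseudocount of 5, 366 under the filter of 5 FPKM, 1400 after rescaling to TPM and 243 with the length trend removed. The number at least 2-fold higher was 271, against 413 and 120 with the other pseudocounts and 137 with the length trend removed. No paired analysis was possible because each group held 1 library. The unknown depth leaves the counting error of low values such as those of Fosb and Egr2 unknown.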
